A study of Mus musculus with 10 samples.

Results

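The region described here is 1 megabase of mouse chromosome 4, bases 153000001 to 154000000 on the mm9 build, named for the genes Trp73 and Prdm16. Its members are the 855 peaks that overlap it, of 543779 peaks in all 10 deposited lists. The lists come from chromatin immunoprecipitation with sequencing (ChIP-seq) in R1E mouse embryonic stem cells, of a mixed C57BL/6X129Sv background and under 20 passages, grown with serum and leukemia inhibitory factor. Cells were either given 0.5 uM Adriamycin for 8 h or left untreated. Adriamycin (doxorubicin) is a topoisomerase II poison that breaks DNA. No other allele or agent is named for either group. Each of 5 targets had 1 library per condition, so no difference below has a replicate check or a test, and all values describe these lists. R1E is 1 cell line. The stem cell label was not checked against marker genes, since no mm9 annotation was used here.

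Antibodies were against 3 histone marks and 2 proteins. H3K4me3 lies at active and poised promoters. H3K27me3 is laid down by Polycomb complexes on silent genes. H3K79me2 covers the first part of transcribed genes. The proteins were RNA polymerase II, written Pol II here, and the splicing regulator hnRNP L. In embryonic stem cells many promoters of developmental genes carry H3K4me3 and H3K27me3 together and are called bivalent. Trp73 encodes p73, a transcription factor of the p53 family that can activate arrest and death genes after DNA damage. It is transcribed from an upstream promoter, which gives the full-length TA forms, and from an internal promoter, which gives N-terminally truncated forms that can oppose p53 and p73. Prdm16 encodes a zinc finger regulator known for its part in brown fat and in blood and neural stem cells.

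The members numbered 30 in the Adriamycin list and 28 in the untreated list for H3K4me3. H3K27me3 had 296 after Adriamycin and 279 untreated, H3K79me2 had 32 after Adriamycin and 20 untreated, and Pol II had 96 after Adriamycin and 74 untreated. hnRNP L had 0 peaks in both lists. The region was chosen by its covered lengths and peak numbers in these lists, so both are given as descriptions. All peaks of the region are counted, with no filter. At the upper edge 1 member, an Adriamycin H3K27me3 peak at 153999313-154000091 with a score of 76.02, crosses the boundary. The next Adriamycin H3K27me3 peak outside is at 154000241-154001194 with a score of 86.38, and the last one inside is at 153998859-153999278 with a score of 62.73. The score is the authors' own value per peak and ranks peaks within 1 list only.

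The promoter sequences of Trp73 and Prdm16, the genes that name the region, show how the 2 Trp73 start sites differ in CG content. They are RefSeq windows from 250 bases before to 50 bases after a start, on GRCm38.p6, minus strand, 5′ to 3′, with CG dinucleotides in capitals. The Trp73 upstream promoter lies on GRCm38.p6 at chr4:154139826-154140125, the Trp73 internal promoter at chr4:154097124-154097423 and the Prdm16 promoter at chr4:154636824-154637123. GRCm38.p6 is not the build of the peaks, and these coordinates were not carried over to mm9. On GRCm38.p6 the Prdm16 window lies farther from the upstream Trp73 window than Trp73 lies from the megabase's upper end on mm9. The Prdm16 promoter may therefore fall past that end, and no member is assigned to it.
Trp73 upstream promoter: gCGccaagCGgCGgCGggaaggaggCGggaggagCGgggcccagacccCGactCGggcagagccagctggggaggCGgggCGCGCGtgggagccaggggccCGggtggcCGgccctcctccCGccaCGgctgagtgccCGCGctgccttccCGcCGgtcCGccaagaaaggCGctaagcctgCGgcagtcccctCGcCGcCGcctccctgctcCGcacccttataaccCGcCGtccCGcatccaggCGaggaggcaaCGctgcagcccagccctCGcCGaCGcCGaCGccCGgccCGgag
Trp73 internal promoter: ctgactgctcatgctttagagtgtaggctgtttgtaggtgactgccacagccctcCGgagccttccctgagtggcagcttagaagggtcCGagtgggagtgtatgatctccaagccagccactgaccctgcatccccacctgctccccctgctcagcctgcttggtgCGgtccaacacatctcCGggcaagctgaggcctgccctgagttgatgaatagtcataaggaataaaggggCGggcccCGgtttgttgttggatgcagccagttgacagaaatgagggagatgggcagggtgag
Prdm16 promoter: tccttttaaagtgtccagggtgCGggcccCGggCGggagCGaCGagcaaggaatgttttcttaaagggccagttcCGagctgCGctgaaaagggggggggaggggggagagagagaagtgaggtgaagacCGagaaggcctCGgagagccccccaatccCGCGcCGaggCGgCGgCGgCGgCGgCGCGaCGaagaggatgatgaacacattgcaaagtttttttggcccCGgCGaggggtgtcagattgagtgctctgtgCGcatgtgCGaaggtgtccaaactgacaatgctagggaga

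The upstream Trp73 window holds 39 CG dinucleotides and is 77.7% G and C. The internal Trp73 window holds 6 and is 57.7% G and C. The Prdm16 window holds 24 and is 61.0% G and C. The median over 32841 mouse promoter windows of this length is 7 CG dinucleotides and 52.7% G and C. The p53 decamer, searched by its consensus on both strands, has 0 matches in each of these 3 windows, and 8.36% of all windows hold one. The motif GGGCGG, on both strands, has 0 matches in the upstream Trp73 window and 1 each in the internal Trp73 and Prdm16 windows, and 35.7% of all windows hold it. These counts describe the letters of the windows only.

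In RefSeq's order of protein-coding genes on GRCm38.p6, genes that include Ajap1, A430005L14Rik, Dffb, Lrrc47, Smim1 and Ccdc27 precede Trp73, and Wrap73, Tprgl, Megf6, Arhgef16, Prdm16 and Actrt2 follow it. Dffb encodes the nuclease that cuts DNA in apoptosis. Only Trp73 has a position on mm9 here, about 153430001 to 153515000, and peaks elsewhere are given by position without a gene.

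Across the megabase every histone mark and Pol II covered more bases in the Adriamycin list than in the untreated list, whereas each of them covered fewer bases over the whole genome. Pol II peaks covered 118.5 kb after Adriamycin and 68.8 kb in untreated cells, a ratio of 1.72, against 0.707 over the genome. H3K79me2 covered 58.1 kb after Adriamycin and 44.0 kb untreated (ratio 1.32, genome 0.937). H3K4me3 covered 45.8 kb after Adriamycin and 37.8 kb untreated (ratio 1.21, genome 0.916). H3K27me3 covered 428.5 kb after Adriamycin and 373.7 kb untreated (ratio 1.15, genome 0.746). H3K27me3 thus lay under a large share of the region in both lists. Of 2187 windows of 1 Mb with at least 2 kb of H3K27me3 in either list, this one held the most covered bases in the Adriamycin list (rank 1) and in the untreated list (rank 1).

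Among windows of 1 Mb, ratios were compared as log2 of covered length with 1 kb added to each list. The log2 ratio of Adriamycin to untreated was 0.78 for Pol II, and 23 of 1812 windows had a higher one. It was 0.20 for H3K27me3, with 32 of 2187 windows higher, 0.40 for H3K79me2, with 39 of 1734 higher, and 0.27 for H3K4me3, with 77 of 2127 higher. Windows that covered more after Adriamycin made up 10.3% of all for Pol II, 3.48% for H3K27me3, 23.9% for H3K79me2 and 31% for H3K4me3. Nothing is read from these ranks about the choice of the region, since covered lengths chose it.

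**Figure D1:**
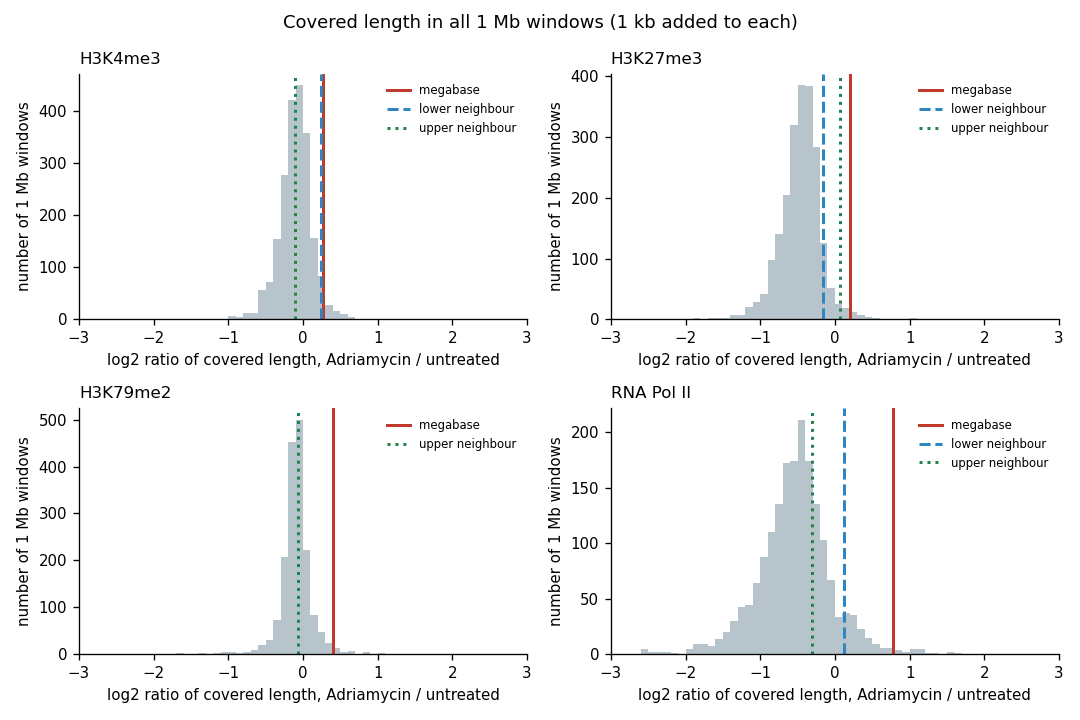
Number of 1 Mb windows (y axis) by log2 ratio of covered length, Adriamycin over untreated (x axis, 1 kb added to each), for 4 targets; vertical lines mark the megabase and its neighbours. The megabase lies at 0.78 for Pol II, 0.40 for H3K79me2, 0.27 for H3K4me3 and 0.20 for H3K27me3, to the right of most windows in all 4 panels; H3K79me2 has no line for the lower neighbour, which held under 2 kb.

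The neighbouring megabases shared the pattern in part. In the upper neighbour, 154000001 to 155000000, Pol II covered 115.1 kb after Adriamycin and 143.0 kb untreated (log2 ratio -0.31), and H3K79me2 217.9 kb after Adriamycin and 228.7 kb untreated (-0.07). H3K4me3 there covered 99.1 kb after Adriamycin and 107.3 kb untreated (-0.11), and H3K27me3 209.9 kb after Adriamycin and 200.2 kb untreated (0.07). For 3 of the 4 targets there the length was thus lower after Adriamycin, and H3K27me3 was slightly higher. In the lower neighbour, 152000001 to 153000000, the values were small for the marks of transcription. Pol II covered 22.8 kb after Adriamycin and 20.9 kb untreated (0.12), and H3K4me3 16.6 kb after Adriamycin and 13.9 kb untreated (0.24). H3K27me3 covered 120.7 kb after Adriamycin and 134.5 kb untreated (-0.15), and H3K79me2 0.534 kb after Adriamycin and 0.788 kb untreated, from 1 peak per list. The 2 neighbours therefore differ from the megabase in the sign of at least 1 target each, and no test of that difference is possible with 1 library per condition. Relative to the genome, the lower neighbour lay near the megabase for H3K4me3, Pol II and H3K27me3, and the upper neighbour for H3K27me3 only. The lower neighbour's ratio exceeded that of 95.4% of 1 Mb windows for H3K4me3, 92.3% for Pol II and 92.0% for H3K27me3. For the upper neighbour these shares were 97.2% for H3K27me3, 71.9% for Pol II, 56.7% for H3K79me2 and 44.4% for H3K4me3. The megabase exceeded 96.3% for H3K4me3, 98.7% for Pol II, 98.5% for H3K27me3 and 97.7% for H3K79me2.

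In the 20 steps of 50 kb, Pol II was higher after Adriamycin in 10 of the 11 steps that held at least 2 kb in either list. Of these, 5 were at least 2-fold higher and 0 at least 2-fold lower, against 3.56% and 20.8% of 9469 such steps in the genome. With 5 kb added in place of 1 kb, 2 Pol II steps were 2-fold higher. H3K27me3 was higher in 13 of 20 steps, and 0 differed 2-fold in either direction (genome 0.211% higher and 9.9% lower). H3K4me3 was at least 2-fold higher in 2 of 9 steps and lower in 1 (genome 1% and 2.14%), and with 5 kb added in 0 and 0. H3K79me2 was at least 2-fold higher in 2 of 6 steps, both with no untreated peak, and lower in 0 (genome 1.53% and 2.42%), and 1 was higher with 5 kb added. The Pol II steps past 2-fold were the 2 at Trp73, the step 153650001-153700000, and 2 with short lengths farther up. Of those, 153850001-153900000 held 2.79 kb after Adriamycin and 0.558 kb untreated (log2 ratio 1.28), and 153900001-153950000 held 2.02 kb after Adriamycin and 0.43 kb untreated (log2 ratio 1.08).

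**Figure D2:**
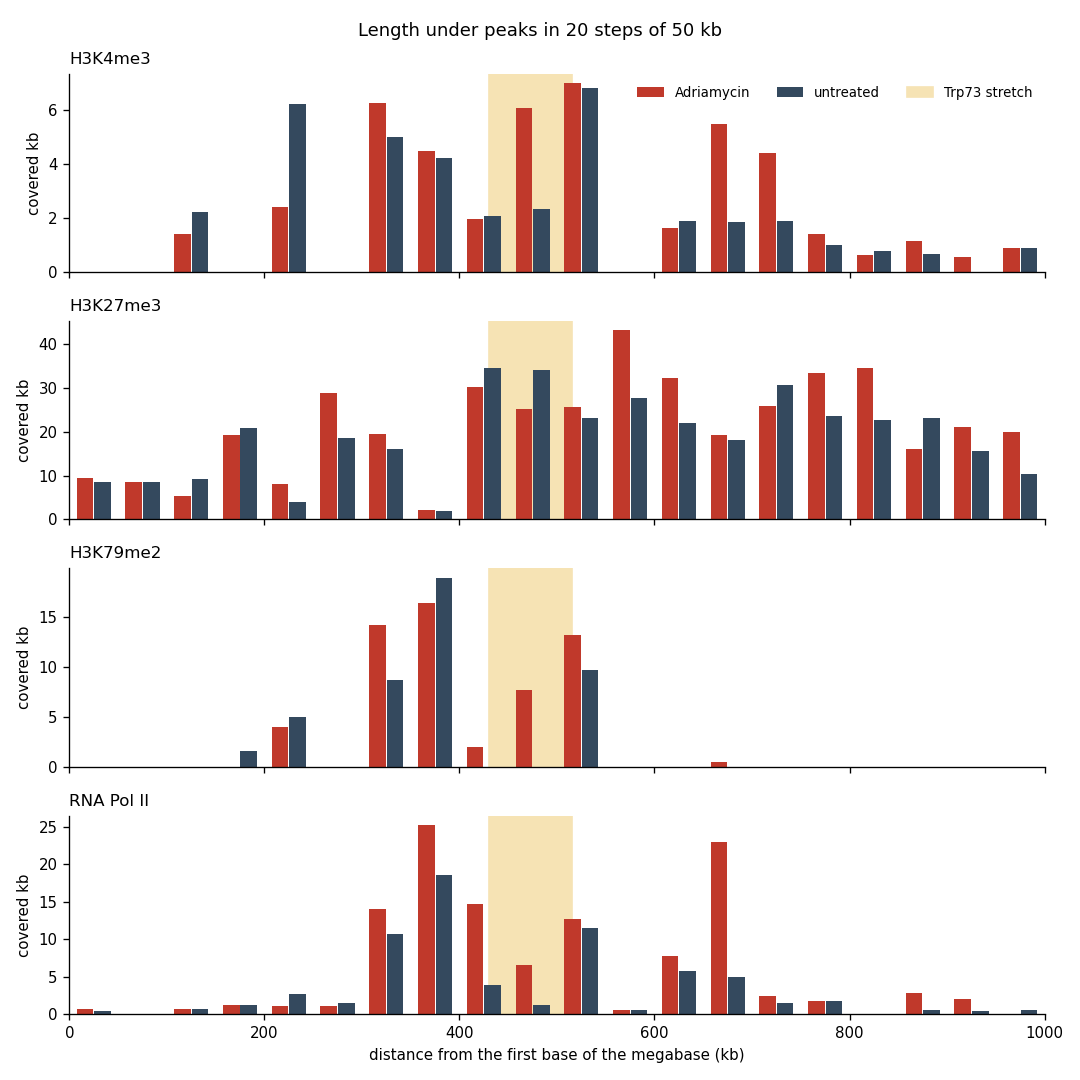
Length under peaks (kb, y axis) in 20 steps of 50 kb along the megabase (x axis, distance from its first base), Adriamycin bars left and untreated bars right, with the Trp73 stretch shaded. Pol II stands at 14.8 kb and 23.0 kb after Adriamycin in the steps that start at 153400001 and 153650001, against 3.92 kb and 4.97 kb untreated; H3K79me2 has Adriamycin bars and no untreated bars in the steps that start at 153400001 and 153450001.

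At Trp73 the transcription marks covered more after Adriamycin while H3K27me3 covered less. In the stretch from 153430001 to 153515000, Pol II covered 19.7 kb in 12 Adriamycin peaks and 4.02 kb in 6 untreated peaks (log2 ratio 2.04). H3K79me2 covered 9.74 kb in 5 Adriamycin peaks, and the untreated list holds 0 peaks there. Read depth is unknown, so a signal under the caller's threshold in the untreated library was not detectable. H3K4me3 covered 8.54 kb after Adriamycin and 4.64 kb untreated, in 4 peaks each (log2 ratio 0.76). H3K27me3 covered 49.9 kb after Adriamycin (58.7% of the stretch) and 59.5 kb untreated (70.0%), a log2 ratio of -0.25. The genome-wide ratio for H3K27me3 was -0.42, and with it taken off the value at Trp73 was 0.17.

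The Pol II values at Trp73 came mostly from peaks without a partner, that is, peaks that no peak of the same target overlapped in the opposite condition. Here and below, fewer cells with a signal and less signal per cell cannot be told apart. Of the 12 Adriamycin peaks 10 had none, and of the 6 untreated peaks 2 had none. The strongest Adriamycin peak lay at the low-coordinate end, at 153429362-153434423 with a score of 1445.95, where the untreated list had 3 small peaks with scores of 52.52 to 127.4. The strongest without a partner, at 153437805-153440198 (score 711.32), is also the strongest unpartnered Adriamycin Pol II peak of the megabase. Another, at 153453376-153457241 (score 444.18), overlapped H3K4me3 and H3K79me2. Trp73 is on the minus strand in the GRCm38.p6 table, so on that build its starts lie at the high-coordinate side.

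H3K79me2, which in most genes follows elongating polymerase, was listed at Trp73 in the Adriamycin library only. The 5 peaks lay between 153444074 and 153470215. The strongest was at 153449090-153451869 with a score of 429.37. The other 4 had scores of 53.21 to 116.6, where the lowest score in the lists is 50. At a score minimum of 100, H3K79me2 covered 5.50 kb more after Adriamycin than untreated. The peaks at 153444074-153445195 and 153465560-153467322 overlapped Adriamycin H3K27me3 peaks, as did the strongest.

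H3K4me3 at Trp73 had 3 peaks shared by the lists and 1 strong peak in the Adriamycin list alone. That peak, at 153469405-153472174 with a score of 1083.07, is the highest-scoring unpartnered H3K4me3 peak of the megabase, and no untreated H3K4me3 peak lay within 5 kb. An untreated Pol II peak was listed there, at 153469169-153470331 with a score of 64.23, and no Adriamycin Pol II peak overlapped the H3K4me3 peak. The shared peak at 153453925-153457242 was 3318 bp wide after Adriamycin and 2345 bp untreated. The one at 153445258-153446442 was 1185 bp after Adriamycin and 581 bp untreated. At the high-coordinate end, the peak at 153513515-153514778 was 1264 bp after Adriamycin and 1197 bp untreated, and it overlapped H3K27me3 in both lists. The 1 unpartnered untreated peak there was small, at 153435227-153435739 with a score of 109.44.

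The centre of the Adriamycin-only H3K4me3 peak lies 43357 bases from the centre of the peak at the high-coordinate end of the stretch. The centres of the other Adriamycin H3K4me3 peaks of the stretch lie 58563 and 68296.5 bases from it. The 2 RefSeq promoter windows of Trp73 printed above lie 42702 bases apart on GRCm38.p6. These are lengths measured within each build, and neither promoter was placed on mm9.

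H3K27me3 at Trp73 differed between the parts of the stretch. This split was chosen after the values were seen. In the 26.142 kb spanned by the Adriamycin H3K79me2 peaks, H3K27me3 covered 4.29 kb after Adriamycin and 13.6 kb untreated. In the 44.785 kb above that span, up to the high-coordinate end, it covered 38.0 kb after Adriamycin and 36.4 kb untreated. In the 14.073 kb below the span, H3K27me3 covered 7.57 kb after Adriamycin and 9.59 kb untreated. Pol II in that lowest part covered 10.6 kb after Adriamycin and 1.53 kb untreated, with no H3K79me2 peak in either list. Where the untreated list had an H3K27me3 peak at 153461292-153467291, 6000 bp wide, the Adriamycin list had one at 153465919-153467268, 1350 bp wide. The untreated peak at 153453193-153455694 (score 390.56), the strongest unpartnered untreated H3K27me3 peak of the megabase, lay under the shared H3K4me3 peak at 153453925. An untreated H3K27me3 peak at 153470443-153479621 covered part of the site of the Adriamycin-only H3K4me3 peak, and its Adriamycin partner began at 153472558, past the end of that H3K4me3 peak.

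**Figure D3:**
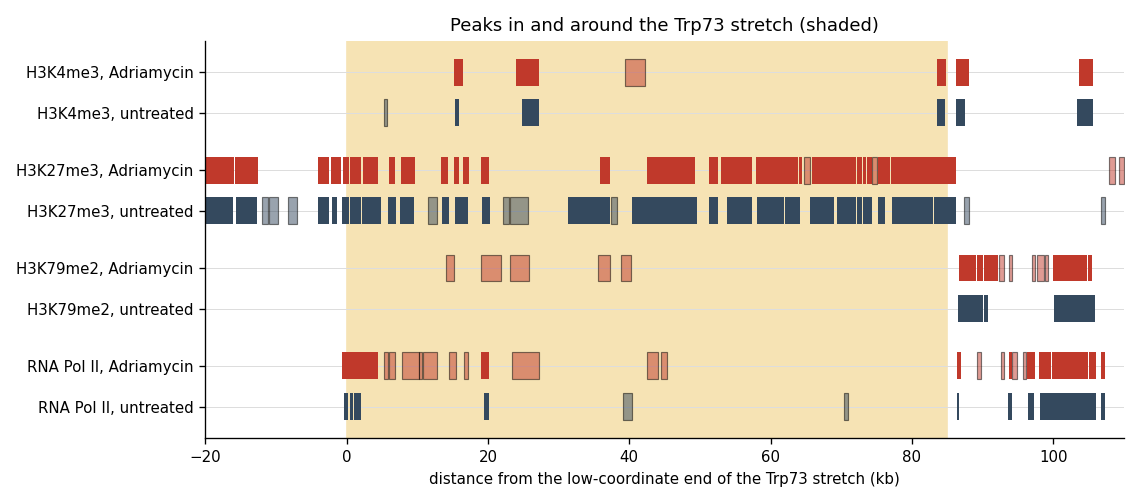
Peaks as blocks along the Trp73 stretch and its surroundings (x axis, distance from the low-coordinate end of the stretch in kb), 1 track per target and condition; paler, outlined blocks have no partner in the other condition. The Adriamycin tracks show 5 H3K79me2 and 10 Pol II blocks without a partner inside the shaded stretch, and the untreated H3K27me3 track covers 13.6 kb of the span of those H3K79me2 blocks, against 4.29 kb in the Adriamycin track.

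Flanking stretches of the same 85 kb did not show this combination. On the lower side Pol II covered 28.1 kb after Adriamycin and 22.0 kb untreated, H3K79me2 19.2 kb after Adriamycin and 21.9 kb untreated, and H3K27me3 22.0 kb after Adriamycin and 23.8 kb untreated. On the upper side Pol II covered 13.4 kb after Adriamycin and 11.5 kb untreated, H3K79me2 13.3 kb after Adriamycin and 9.73 kb untreated, and H3K27me3 54.6 kb after Adriamycin and 38.0 kb untreated. Among 7172 steps of 50 kb with at least 2 kb of both Pol II and H3K79me2 in either list, 32 (0.446%) were at least 2-fold higher for both, and 2 of these are the steps 153400001-153450000 and 153450001-153500000 at Trp73. In both of them H3K27me3 was lower after Adriamycin, at 30.2 kb after Adriamycin against 34.6 kb untreated in the first, and 25.3 kb after Adriamycin against 34.1 kb untreated in the second (log2 ratios -0.19 and -0.42). The median over all genome steps for H3K27me3 was -0.37, so the first lay above it and the second near it. Of 2444 genome steps in which H3K27me3 was measured too, 11 (0.450%) had both 2-fold higher values and lower H3K27me3. The second step was also 2-fold higher for H3K4me3, with 6.09 kb after Adriamycin and 2.35 kb untreated. Covered lengths chose the region, so nothing is read from these genome shares. The 2 steps adjoin, and the first held 2.03 kb of H3K79me2 after Adriamycin, just over the 2 kb minimum. With steps moved by 25 kb, 1 step of the megabase was 2-fold higher for H3K79me2.

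Beyond Trp73 on the high-coordinate side lay the step with the highest Pol II ratio of the megabase. In the step 153650001-153700000 Pol II covered 23.0 kb after Adriamycin and 4.97 kb untreated (log2 ratio 2.01), and 56 of 9469 steps in the genome had a higher ratio. When peaks were joined over gaps of up to 3 kb, 10 Adriamycin peaks formed a domain of 23.2 kb at 153645815-153668993, of which 83.0% was under Adriamycin peaks and 20.8% under 6 untreated peaks. Its strongest peaks were at 153651029-153656798 (score 2845.09, 5770 bp) and 153645815-153650997 (score 2700.71, 5183 bp). They rank just below the highest-scoring Adriamycin Pol II peak of the megabase, at 153532139-153534945. Within the untreated list the peaks of the domain had scores of 51.9 to 225.71, where the top Pol II peaks of the megabase were at 153529871-153536061 (score 3100), 153336019-153337475 (score 2650.45) and 153394558-153397543 (score 2486.34). By the same joining, the megabase held 7 Pol II domains of at least 10 kb after Adriamycin, 126.4 kb in sum, and 3 untreated, 49.4 kb in sum. The domain at 153691049-153701560 was 61.8% covered after Adriamycin and 4% untreated, and the one at 153891588-153902463 was 44.2% covered after Adriamycin and 9.08% untreated. The untreated domain at 153376635-153400660 was nearly alike in both, at 71.4% after Adriamycin and 68.9% untreated.

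This Pol II domain had almost no H3K79me2. The Adriamycin list held 1 H3K79me2 peak in the step, at 153664311-153664819 with a score of 65.23, and the untreated list held 0. That is 0.509 kb of H3K79me2 in the step, against 7.71 kb after Adriamycin in the step 153450001-153500000 at Trp73. H3K27me3 in the step was close in both lists, at 19.2 kb after Adriamycin and 18.2 kb untreated. H3K4me3 had its highest ratio of the megabase in this step, with 5.47 kb after Adriamycin and 1.84 kb untreated (log2 ratio 1.19), and 75 of 10754 steps in the genome had a higher one. Most of that came from 1 shared peak at 153670735-153675156, which was 4422 bp wide after Adriamycin and 1841 bp untreated. Its score was 3100 in both lists, a value that several strong peaks share and that is called the ceiling here. Some peaks have a higher score, and whether they are stronger than those at 3100 was not tested. A Pol II peak under this H3K4me3 peak was 2351 bp wide after Adriamycin and 1397 bp untreated. In the next step, up to 153750000, an H3K4me3 peak at 153701728-153703286 (score 550.8) was listed after Adriamycin only.

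**Figure D4:**
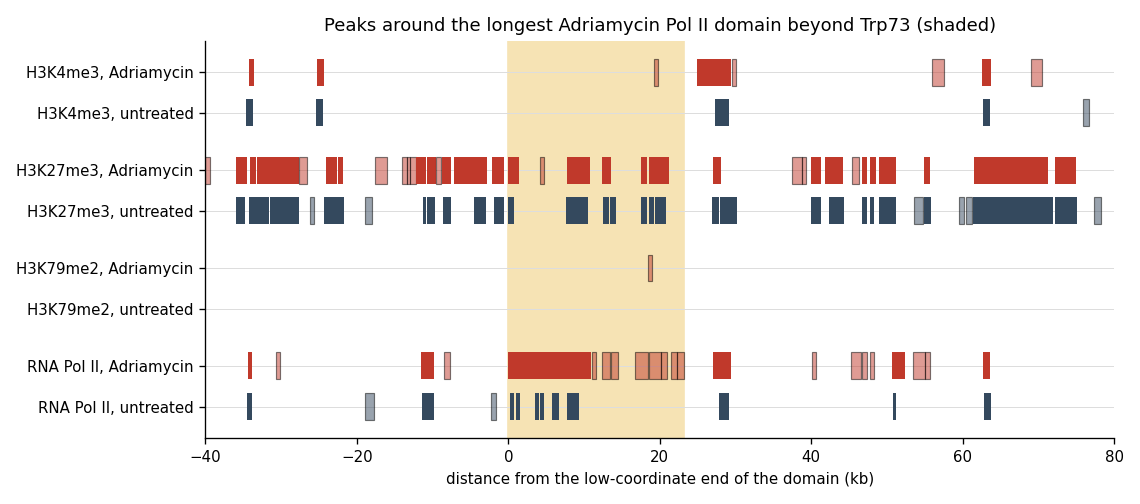
Peaks as blocks around the Adriamycin Pol II domain at 153645815-153668993, shaded (x axis, distance from its low-coordinate end in kb), 1 track per target and condition; paler, outlined blocks have no partner in the other condition. Adriamycin Pol II blocks fill 83.0% of the shaded domain and untreated ones 20.8%, while H3K27me3 blocks lie in both tracks and H3K79me2 has 1 small block.

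Elsewhere in the region Pol II and H3K79me2 were present in both conditions. The strongest H3K79me2 peaks were at the ceiling in both lists, at 153331508-153335969 after Adriamycin and 153331292-153335994 untreated, and at 153385912-153395484 after Adriamycin and 153385495-153396394 untreated. The third was 153349913-153355374 (score 1130.78) after Adriamycin and 153530129-153534871 (score 1892.47) untreated. The longest H3K79me2 domain, 23.9 kb at 153331508-153355374, was 82.0% covered after Adriamycin and 54.3% untreated. It includes the strongest unpartnered Adriamycin H3K79me2 peak, at 153341430-153344529 with a score of 448.62. The strongest untreated H3K79me2 peak without a partner scored 121.85, at 153208543-153209550. H3K79me2 peaks without a partner were 17 of 32 after Adriamycin (53.1%, exact 95% interval 34.7 to 70.9%) and 5 of 20 untreated (25%, 8.66 to 49.1%), against 18% after Adriamycin and 19% untreated over the genome. With no peak of the other list within 5 kb, the shares were 18.8% after Adriamycin and 0% untreated. Among those scoring 100 or more they were 31.6% of 19 after Adriamycin and 13.3% of 15 untreated.

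H3K4me3 peaks that reached the ceiling were the same number in both lists, 5 each, at matching places. They lay at 153330472-153333103, 153346380-153350804, 153385067-153388197, 153533631-153535687 and 153670735-153675156 in the Adriamycin list. The second was 4425 bp wide after Adriamycin and 2134 bp untreated. The strongest untreated Pol II peak without a partner, at 153348662-153349798 (score 643.56), lay under this second peak. H3K4me3 was lower after Adriamycin in 1 place past 2-fold, the step 153200001-153250000, with 2.42 kb after Adriamycin and 6.23 kb untreated. The strongest unpartnered untreated H3K4me3 peak, at 153202799-153205285 (score 582.07), lay there. Unpartnered H3K4me3 peaks were 7 of 30 after Adriamycin (23.3%, 9.93 to 42.3%) and 6 of 28 untreated (21.4%, 8.30 to 41.0%), against 15.8% after Adriamycin and 14.5% untreated over the genome.

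Matched peaks were wider after Adriamycin at the median here. Covered lengths, which add up peak widths, chose the region, so these widths are descriptions and no separate result. Over the 21 H3K4me3 pairs that matched 1 to 1, the median width after Adriamycin minus untreated was 67 bp, against -90 bp over the genome, and 12 pairs were wider, against 31.3% genome-wide. For H3K27me3 the median was 30 bp (genome -123 bp), and 68 of 127 pairs were wider (genome 23.6%). For H3K79me2 it was 125 bp (genome -84 bp), and 5 of 9 pairs were wider (genome 32.9%). For Pol II it was 48 bp (genome -58 bp), and 25 of 36 pairs were wider (genome 37.1%).

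Peaks of Pol II were unevenly partnered. Without a partner were 44 of 96 Adriamycin peaks (45.8%, 35.6 to 56.3%) and 17 of 74 untreated peaks (23.0%, 14.0 to 34.2%), whereas over the genome the shares were 26.1% after Adriamycin and 48% untreated. With no peak of the other list within 5 kb, the shares here were 10.4% after Adriamycin and 12.2% untreated. Among peaks that scored 100 or more they were 30.2% after Adriamycin and 14.3% untreated. With peaks within 1 kb merged they lay closer together, at 17 of 46 after Adriamycin (37.0%) and 16 of 52 untreated (30.8%). Merged peaks were thus fewer after Adriamycin than untreated, whereas unmerged peaks were more numerous. The uneven shares and peak numbers therefore depend in part on how peaks are split. Many Pol II members overlapped H3K27me3, which covered 428.5 kb of this 1 Mb after Adriamycin and 373.7 kb untreated. The share is therefore not read as a trait of the Pol II peaks. H3K27me3 overlapped 45 of 96 Adriamycin Pol II peaks (46.9%, 36.6 to 57.3%) and 31 of 74 untreated ones (41.9%, 30.5 to 53.9%), against 11.2% after Adriamycin and 10.2% untreated over the genome. The lower neighbour had like shares, 38.9% of 36 peaks after Adriamycin and 51.5% of 33 untreated, and the upper neighbour had 19.4% after Adriamycin and 16.9% untreated. Of the 38 Adriamycin Pol II peaks that overlapped H3K27me3 and neither other mark, 25 had no partner (65.8%, genome 58.3%). Of the 20 at H3K79me2 alone, 3 had none (15.0%, genome 25.4%). Of the 16 at H3K4me3, with or without another mark, 4 had none (25%, genome 8.76%). Of the 21 at none of these marks, 12 had none (57.1%, genome 40.4%). Shares above the genome's were thus not confined to Pol II peaks at H3K27me3. The median score of unpartnered Adriamycin Pol II peaks was 93.39, against 193.09 for partnered ones.

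**Figure D5:**
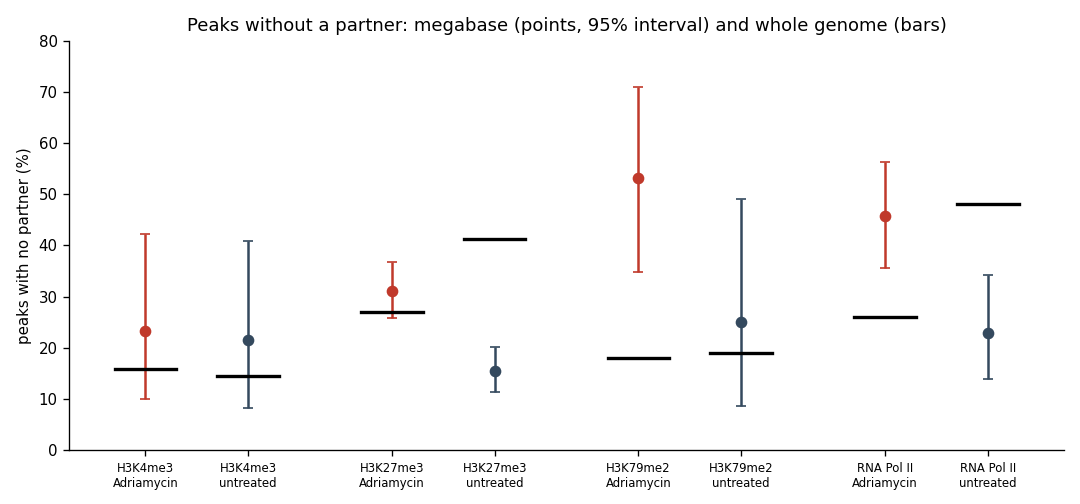
Share of peaks with no partner in the other condition (%, y axis) for 4 targets and both conditions; points are the megabase with exact 95% intervals and black bars the whole genome. In the megabase Pol II stands at 45.8% after Adriamycin and 23.0% untreated, with genome bars at 26.1% after Adriamycin and 48% untreated.

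H3K27me3 formed 20 domains of at least 10 kb after Adriamycin and 21 untreated by the 3 kb joining, and 10 of at least 20 kb in each list. The longest Adriamycin domain spanned 68.4 kb at 153795293-153863688, where 72.0% of bases were covered after Adriamycin and 49.8% untreated. The longest untreated domain spanned 58.3 kb at 153397443-153455694, which reaches into Trp73, and 55.8% of it was covered after Adriamycin against 68.8% untreated. The 35.9 kb domain at 153570448-153606392 was 94.1% covered after Adriamycin and 64.0% untreated. It holds the highest-scoring H3K27me3 peak of the region after Adriamycin, at 153575329-153586470 with a score of 3212.42 and a width of 11142 bp. Peaks at the ceiling of 3100 after Adriamycin included 153403565-153408763 and 153488006-153493914, and the second of these lies in the Trp73 stretch. In the untreated list the highest were at 153544828-153551684 (score 3100), 153707992-153717680 (score 2807.39) and 153408870-153413913 (score 2669.7). Above Trp73, from 153515001, H3K27me3 covered 257.5 kb after Adriamycin and 204.5 kb untreated, and below it, up to 153430000, 121.1 kb after Adriamycin and 109.7 kb untreated.

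By steps, H3K27me3 was highest relative to untreated in the step 153200001-153250000, with 8.11 kb after Adriamycin and 3.87 kb untreated (log2 ratio 0.90). In that step H3K4me3, Pol II and H3K79me2 had their lowest ratios among steps of the megabase with at least 2 kb of the target in either list. Pol II covered 1.12 kb after Adriamycin and 2.65 kb untreated (log2 ratio -0.78), the 1 such Pol II step lower after Adriamycin. H3K79me2 covered 3.97 kb after Adriamycin and 4.96 kb untreated (log2 ratio -0.26). H3K27me3 was lowest in 153100001-153150000, with 5.41 kb after Adriamycin and 9.31 kb untreated (log2 ratio -0.68). Peaks without a partner were 92 of 296 after Adriamycin (31.1%, 25.9 to 36.7%) and 43 of 279 untreated (15.4%, 11.4 to 20.2%), against 27% after Adriamycin and 41.2% untreated over the genome. Among those that scored 100 or more the shares were 20.7% after Adriamycin and 9.52% untreated, and with peaks within 1 kb merged they were 19.2% after Adriamycin and 16.9% untreated. The strongest after Adriamycin, at 153563755-153565608, scored 417.64. Only 2 Adriamycin and 0 untreated H3K27me3 peaks lay over 5 kb from a peak of the other list.

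H3K4me3 and H3K27me3 often coincided, in a window where H3K27me3 covered 428.5 kb of 1 Mb after Adriamycin and 373.7 kb untreated. A high share of overlap is therefore not read as a trait of the H3K4me3 peaks. H3K27me3 overlapped 14 of 30 H3K4me3 peaks after Adriamycin (46.7%, 28.3 to 65.7%) and 14 of 28 untreated (50%, 30.6 to 69.4%), against 23.5% after Adriamycin and 28.1% untreated over the genome. In the upper neighbour the shares were 29.0% of 69 peaks after Adriamycin and 30.1% of 73 untreated, and in the lower neighbour 7 of 19 after Adriamycin and 7 of 12 untreated. Counted from the other side, 15 H3K27me3 peaks after Adriamycin and 17 untreated overlapped H3K4me3. Pol II overlapped 46.7% of H3K4me3 peaks after Adriamycin and 57.1% untreated, close to the genome's 49.6% after Adriamycin and 61.3% untreated. H3K79me2 overlapped 26.7% of them after Adriamycin and 25% untreated, below the genome's 33.9% after Adriamycin and 38.4% untreated.

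hnRNP L was not listed in the megabase in either condition, and no hnRNP L peak lay between it and the end of the chromosome. The nearest peak on the lower side was at 152526662-152527710 after Adriamycin and 152526830-152527691 untreated, both with a score of 3100 and about 472.3 kb from the region.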

How the data were processed

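ChIP-seq peak lists of 5 targets were used, 1 library per target in Adriamycin-treated and 1 in untreated cells, grouped by the labels' titles. CASAVA 1.8.2, MACS 1.4.1 and the build mm9 are named, per the submitters' processing notes. The deposited lists give each peak's chromosome, start, end, name and score. In MACS of this generation the score is 10 times the negative log10 of the p-value, so the lowest score of 50 corresponds to 1e-05. Not given in the sources used here were read depth, input and duplicate handling, and each library's sensitivity is therefore unknown.

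Covered length is the bases under peaks within a window or step. Log2 ratios are Adriamycin over untreated with 1 kb added to each. A partner overlaps by at least 1 bp. Steps and 1 Mb windows start at base 1 of the numbered chromosomes and X and count with at least 2 kb in either list. Exact Clopper-Pearson 95% intervals cover counting error only. The overlap and length code was tested on simulated lists. No test of Adriamycin was made, as there are no replicates. The region, the lists and the rules were chosen with earlier results of these data known. Regions named are the 3 highest-scoring peaks of each list (tied ones in full for H3K4me3, in part for H3K27me3), the highest without a partner, the steps with the highest and lowest ratio, the Trp73 stretch and hnRNP L. The span of the Adriamycin H3K79me2 peaks within Trp73, the Pol II domains and the alternatives for the Trp73 stretch were added after values had been seen. Tools were matplotlib 3.10.9, SciPy 1.17.1, pandas 2.3.3, numpy 2.4.6 and Python 3.11.15. Alternatives were a score minimum of 100, lists of equal length, merging, stricter overlap or distance, shifted windows and other step settings.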

Additional observations from a re-analysis of the deposited data

How the results depend on the processing

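Covered length in the megabase stayed higher after Adriamycin for the 4 targets under all 6 alternatives. These were a score minimum of 100, lists cut to equal length by score, merging within 1 kb, moving the window by 25 kb up and down, and taking off the genome-wide log2 ratio. The log2 ratios ranged from 0.77 to 1.28 for Pol II, 0.18 to 0.62 for H3K27me3, 0.25 to 0.49 for H3K79me2 and 0.23 to 0.40 for H3K4me3. Taking off the genome-wide ratio, negative for all 4 targets, could only raise a value, and it gave the upper end of each range. The moved windows keep most of the same bases, so these alternatives could hardly change the direction. The Trp73 stretch was recomputed with alternatives chosen after seeing the data. Pol II ranged from 2.04 to 2.57 and H3K4me3 from 0.76 to 0.92. H3K79me2 covered 5.50 kb more after Adriamycin at a score of at least 100, where fewer peaks are counted, and 9.74 kb in all. H3K27me3 reversed to 0.17 once its genome-wide ratio was taken off, as its value of -0.25 at Trp73 was less negative than the genome's -0.42.

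Shares of unpartnered peaks moved outside their intervals in the following cases, and the cause was not tested except that a 5 kb distance can only lower a share. With a score of at least 100 they were 20.7% after Adriamycin and 9.52% untreated for H3K27me3, 31.6% for H3K79me2 after Adriamycin and 30.2% for Pol II after Adriamycin. Merging within 1 kb gave 19.2% for H3K27me3 after Adriamycin. It left the Pol II shares inside their intervals but closer together, at 37.0% after Adriamycin and 30.8% untreated. With no peak allowed within 5 kb the shares were 0.676% after Adriamycin and 0% untreated for H3K27me3. For H3K79me2 they were 18.8% after Adriamycin and 0% untreated. For Pol II they were 10.4% after Adriamycin and 12.2% untreated, so the order of the Pol II shares turned.

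Counts of 2-fold steps rest on few steps. With 5 kb added they were 2 higher for Pol II, 1 for H3K79me2, 0 for H3K4me3, and 0 lower for H3K4me3. A score of at least 100 gave 3 higher for Pol II, 1 for H3K79me2, and 1 lower for H3K27me3. Steps moved by 25 kb gave 1 higher for H3K79me2 and 0 lower for H3K4me3, and equal list lengths gave 1 higher for H3K79me2. At 1.5-fold there were 5 higher and 1 lower for H3K27me3 and 1 lower for Pol II, and with no minimum length 1 lower for H3K79me2. The share of H3K4me3 peaks with H3K27me3 stayed within its interval under all 3 alternatives. No paired analysis was possible because each target has 1 library per condition. Depth limits all values: a peak under its list's threshold is not listed. In all, 106 of 133 alternative values kept their call. A covered length kept it with the same direction and a change under 1.5-fold, a share inside its interval, and a count within 1.5-fold. These rules are unlike and some intervals are wide, so the total does not measure robustness.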
